A study of Caenorhabditis elegans with 6 samples.

Results

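The 7 endoderm GATA factor genes of Caenorhabditis elegans, med-1, med-2, end-3, end-1, elt-7, elt-2 and elt-4, were taken as a named list and placed at their RefSeq coordinates. All 7 had at least 1 listed GATC site and passed the minimum of 60 reads, among 18651 protein-coding genes that passed of 19295 with a listed site. The rule used names and positions, not levels, but the members were chosen with earlier results of these data known.

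GATA factors are zinc-finger proteins that bind DNA motifs built around the letters GATA, and in the worm they form the cascade that makes the intestine. In the founder cell EMS the maternal factor SKN-1 switches on med-1 and med-2, whose products activate end-1 and end-3 in the endoderm daughter, E. The END proteins then activate elt-7 and elt-2, and ELT-2 maintains its own transcription and that of most intestine genes in the differentiated gut. The neighbour elt-4 encodes a small relative of ELT-2 for which no essential function is known.

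The assay, DamID, marks DNA near a chosen protein and was applied to find chromatin close to the nuclear envelope in EMS descendants of early embryos. In 3 libraries (strain BN1470) the bacterial adenine methyltransferase Dam was joined to EMR-1, the emerin of the worm, which sits in the inner nuclear membrane. In 3 others (strain BN1465) Dam was joined to GFP. All 6 are labelled wild type in genotype and EMS in cell type, and came from embryos of adults kept at 20 °C on dam(-) bacteria. Each group is 1 strain, so strain and fusion cannot be told apart, and the labels do not say how Dam was restricted to the EMS lineage. The names of the deposited tables carry a tag that reads as the promoter of med-1, without saying what it drives or whether both strains carry it. The libraries hold genomic DNA, so no marker transcript could be used to check the cell type. Each value is an average over all marked nuclei of the embryos, and methylation in fewer nuclei cannot be told apart from weaker methylation in each.

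The recovered depth was 22411781, 15725996 and 17363564 reads in the Dam::EMR-1 libraries and 17545576, 16286399 and 17484881 in the GFP::Dam libraries. The deposited ratio at a GATC site, the sequence that Dam methylates, compares the reads of a Dam::EMR-1 library, plus 1, with those of the GFP::Dam library that has its number, plus 1, on a log2 scale centred to a mean of 0 over all sites. That Dam::EMR-1 is on top is an assumption, since the headers do not say it, and every direction here rests on it. A gene's ratio is the mean over its sites in the body and 500 bp on each side. A gene, site or bin is called depleted (below 0) or enriched (above 0) where limma's adjusted p over all features of its kind was under 0.05.

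Of the 7 genes, 4 were depleted at EMR-1 and 0 enriched. end-1, elt-7, elt-2 and elt-4 were the depleted ones, and med-1, med-2 and end-3 did not pass the test; scaling by total reads gave 4 and 0 as well. Over all tested genes, 27.2% were depleted and 30.3% enriched, and the median ratio was 0.31 against -3.06 over the 7. At an unadjusted p under 0.05, limma gave 4 depleted and 0 enriched members, and edgeR and DESeq2 on recovered reads also gave 0 enriched. The count of depleted members was 2 with reads summed over each gene's sites before the ratio was taken, where 19.4% of all genes were depleted and 24.2% enriched. edgeR called 18.1% of all genes depleted and 19% enriched (15.5% and 13.3% with the replicate number as a block), DESeq2 25.7% and 27.5%, and limma with 2000 bp on each side of the gene 32.6% and 35.6%.

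In order, the gene ratios were -5.98 ± 1.49 for elt-4, -5.88 ± 1.01 for end-1, -3.33 ± 1.09 for elt-2, -3.06 ± 1.49 for elt-7, -1.03 ± 2.73 for end-3, 1.05 ± 2.49 for med-2 and 1.21 ± 0.52 for med-1 (SD, n = 3 replicate ratios). Neighbours in this order differed by less than the larger of their SDs, except end-1 and elt-2, whose replicate ratios did not overlap. Differences between neighbours in the order were not tested.

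**Figure D1:**
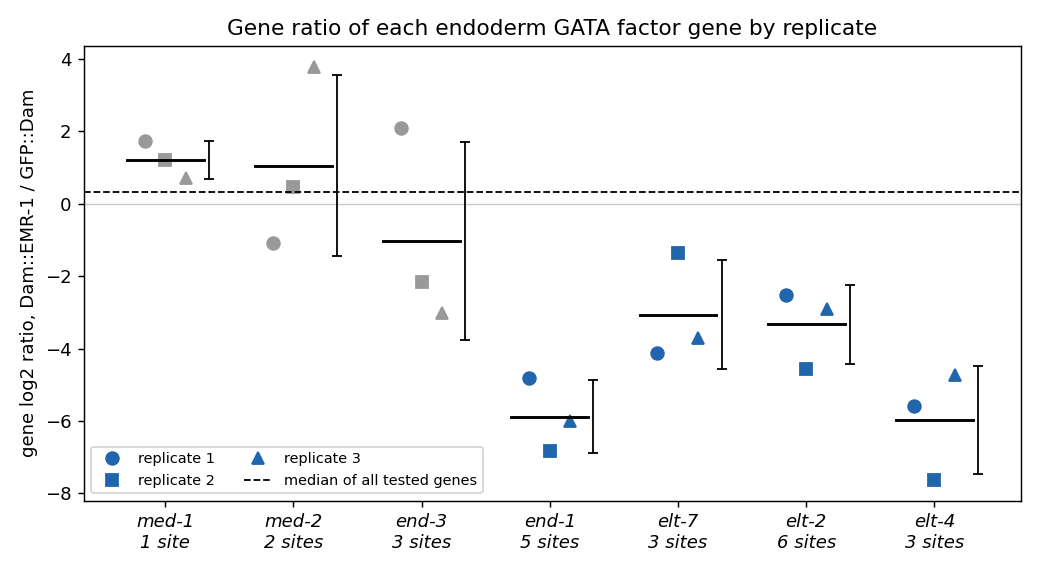
Gene log2 ratio of Dam::EMR-1 over GFP::Dam for each of the 7 genes, with 1 symbol per replicate number, a bar at the mean and an error bar of 1 SD. Blue symbols mark genes called depleted and grey symbols genes not called; the dashed line is the median of all tested genes (0.31). The 4 depleted genes have all replicates below -1, while med-2 and end-3 have replicates on both sides of 0.

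The members differ in how much of them the assay can see. GATC sites limit the resolution, and the 7 genes held 23 listed sites, of which 15 lay in a gene body and 18 had at least 60 reads over the 6 libraries. Some numbered GATC sites had no listed value. Between the listed sites that flank a gene's window, 5 of 6 numbered sites were unlisted at med-1 and 4 of 6 at med-2. It was 6 of 9 at elt-7, 1 of 4 at end-3 and 0 at end-1, elt-2 and elt-4. The median tested gene had 6 sites and 2041 reads. end-1 (9199 reads), elt-4 (5212) and elt-2 (4393) had more reads than that gene, whereas med-1 (539), end-3 (297), elt-7 (217) and med-2 (108) had fewer.

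The MED factors stand at the top of the zygotic cascade. med-1 lies on chromosome X at 12430609 to 12431133 (WBcel235, ce11), and its 1 listed site was 59 bp outside the lower-coordinate end of the gene. That site had 129, 152 and 117 reads in the Dam::EMR-1 libraries and 25, 52 and 64 reads in the GFP::Dam libraries. Every Dam::EMR-1 library was higher than every GFP::Dam library, and the replicate ratios were 1.73, 1.19 and 0.70, all above 0. Their mean of 1.21 ± 0.52 did not pass the test (limma, adjusted p = 0.23). With 2000 bp on each side in place of 500, med-1 was enriched with a ratio of 2.11 (adjusted p = 0.024, within a range of 0.024 to 0.63 over 14 alternatives).

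If a construct holds the med-1 promoter, its reads cannot be told apart here from those of the med-1 locus, and the values at and beside the gene carry this doubt. Of the 18 other tested 2-kb bins within 20 kb, 9 had means above 0 and 9 below, with 3 enriched and 1 depleted. A run of 6 neighbouring 2-kb bins, 12 kb from 12422001 to 12434000, had all 3 replicates above 0 in every bin, with a mean of 2.95 ± 0.85, and it held the gene. The run kept its 6 bins when ratios were scaled by total reads. Next to the gene on the lower side, the bin centred 1.61 kb below it had 48, 457 and 1939 reads in the Dam::EMR-1 libraries against 5, 0 and 29 in the GFP::Dam libraries, a ratio of 5.24 ± 2.99 (limma, adjusted p = 0.035). The Dam::EMR-1 libraries were all higher there, but their levels spread widely. The bin that holds med-1 itself had a ratio of 0.84 ± 0.45 and was not called. T24D3.2, the gene 3979 bp below, was enriched at 2.97 ± 0.11 (adjusted p = 0.0042). On the upper side, the bin centred 16.4 kb from the gene's lower end was depleted at -3.54 ± 0.25 (adjusted p = 0.026), as was T18D3.6 at -2.25 ± 0.55 (adjusted p = 0.026).

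med-2, which encodes a near-identical copy of MED-1, lies on chromosome III at 6884503 to 6885027. It had 2 listed sites, and the replicate ratios were -1.09, 0.46 and 3.78. The site in the neighbouring gene brd-1, a relative of the human tumour suppressor BARD1, had 0, 2 and 65 reads in the Dam::EMR-1 libraries and 0, 0 and 4 in the GFP::Dam libraries, so 65 of its 71 reads came from 1 library. At the site inside the gene the reads of each library could not be recovered uniquely. The mean of 1.05 ± 2.49 did not pass (limma, adjusted p = 0.43) and was -0.32 without replicate 3. How reads that fit both med genes were treated is not given in the sources used here, and both genes' values are uncertain for that reason.

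Around med-2, 9 of 11 protein-coding neighbours within 20 kb were depleted and 0 enriched, where 27.2% and 30.3% of all tested genes were. Some of these neighbours share sites, so the 9 are not separate observations. K04C2.5 lies inside K04C2.2, and the window of brd-1 takes in both listed sites of med-2. The 1004 tested genes in the same segment of chromosome III, 1 of 3 of equal length, had a low median ratio themselves, -2.44. The DNA repair genes brd-1 and brc-2, a relative of BRCA2, had ratios of -2.13 ± 0.715 (limma, adjusted p = 0.036) and -4.20 ± 0.79 (adjusted p = 0.00155). The lowest bin, centred 10.5 kb above med-2, had 0, 1 and 0 reads in the Dam::EMR-1 libraries and 595, 234 and 340 in the GFP::Dam libraries. The bin directly below that of med-2, which overlaps its neighbour K04C2.7, had 28, 38 and 38 reads in Dam::EMR-1 against 1, 0 and 1 in GFP::Dam and was enriched at 3.76 ± 0.79 (adjusted p = 0.031). This bin rests on 106 reads in all.

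**Figure D2:**
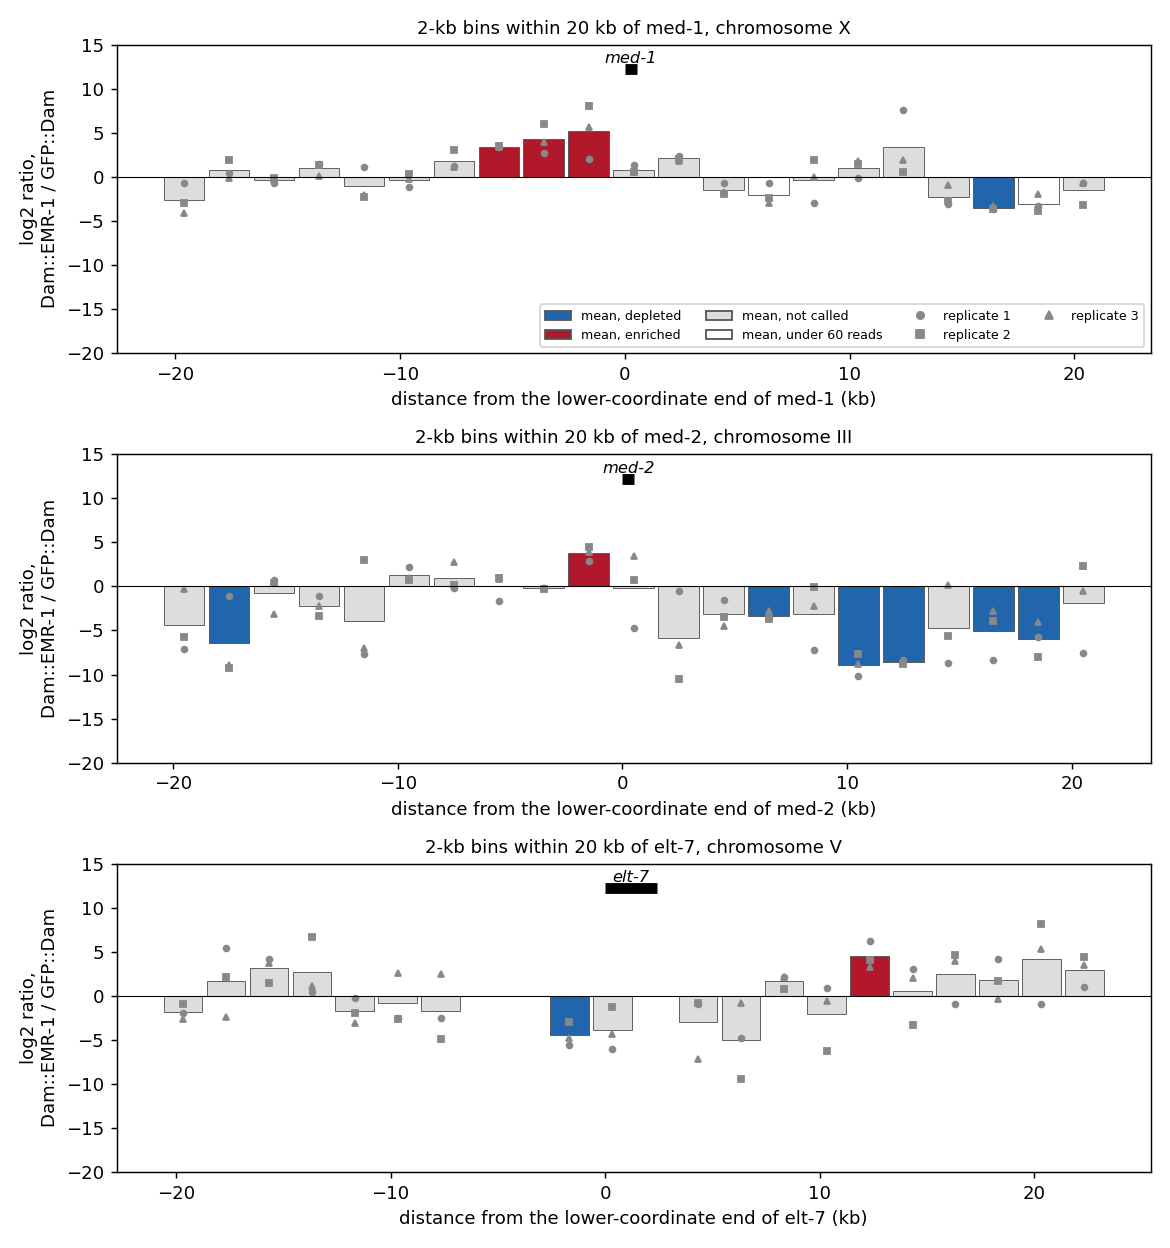
Log2 ratio of Dam::EMR-1 over GFP::Dam in 2-kb bins within 20 kb of med-1, med-2 and elt-7, against distance from each gene's lower-coordinate end in kb. Bars are means of 3 replicates, coloured blue for depleted, red for enriched, grey for not called and white for under 60 reads; small symbols are replicates and black bars the genes. med-1 sits in a run of 6 bins above 0, and the bin of med-2 has replicates on both sides of 0. The 1 listed bin that overlaps elt-7 and the bin below it have all replicates below 0.

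The END factors commit the E cell to endoderm. end-1, on chromosome V at 13985128 to 13987074, had 348, 47 and 22 reads over its 5 sites in the Dam::EMR-1 libraries and 2812, 3695 and 2275 in the GFP::Dam libraries. Every Dam::EMR-1 library was far below every GFP::Dam library. The replicate ratios were -4.81, -6.83 and -6.001, with a mean of -5.88 ± 1.01 (limma, adjusted p = 6.5e-05), and end-1 was depleted under each of the 15 alternatives, with adjusted p from 1.1e-06 to 0.012. Only 2.39% of all tested genes had a lower ratio. Among the 1475 tested genes in the same segment of chromosome V, 1 of 3 of equal length, whose median ratio was 2.45, 1.02% were lower.

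Per site, end-1 ranked high in the GFP::Dam libraries and not in the others. Its reads per site stood at the 60.7, 28.5 and 20.2 percentile of all tested genes in Dam::EMR-1 and at the 97.6, 98.6 and 96.9 percentile in GFP::Dam. About the same share of the gene's reads fell on the site 1918 bp from its lower end in the GFP::Dam libraries, 51.03, 51.4 and 47.2%. In the Dam::EMR-1 libraries the top site was a different one each time, so the shares are not like for like. It held 67.8% of the reads in replicate 1 (at 2387 bp, in ric-7) and 55.3% in replicate 2 (at 1918 bp). In replicate 3 it held 36.4% (at 186 bp, where the reads could not be recovered uniquely). The 2 genes closest to end-1 in log2(CPM per site + 1) over the 6 libraries (CPM, reads scaled to the depth of the library) were nstp-10 and T19B10.2, at distances of 0.96 and 0.96 against 7.60 for the median gene.

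end-3, on the same chromosome at 14014695 to 14015980 and 27620 bp above end-1, had 96, 0 and 47 reads in the Dam::EMR-1 libraries and 16, 43 and 95 in the GFP::Dam libraries. Of the 297 reads at end-3, 222 fell on a site outside the gene, in its neighbour srh-308. The 2 sites in the body had 31 and 44 reads, too few to be tested, and both libraries of replicate 2 had 0 reads there. The value of end-3 thus rests mostly on the site in srh-308. The groups overlapped, and the replicate ratios of 2.09, -2.16 and -3.02 lay on both sides of 0. Their mean of -1.03 ± 2.73 did not pass (limma, adjusted p = 0.44). Set against end-3 within each replicate, end-1 was lower by ratio differences of -6.90, -4.67 and -2.98. All 3 replicates had the same direction, with a mean difference of -4.85 ± 1.97, and the exact two-sided sign-flip permutation test gave p = 0.25, the smallest that 3 replicates allow.

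Around end-1, 5 of the 12 other tested 2-kb bins within 20 kb were depleted and 0 enriched. Around end-3 these were 8 and 1 of 20, and some bins count for both genes. Of all tested 2-kb bins, 17.2% were depleted and 19.2% enriched. end-1 was inside a run of 4 bins, 8 kb from 13980001 to 13988000, with all replicates below 0 in each bin and a mean of -4.91 ± 1.32. Between the 2 genes, ric-7, needed for the transport of mitochondria in axons, was depleted at -3.03 ± 0.59 (limma, adjusted p = 0.000609), as was the DEAD-box helicase gene ddx-17 at -5.004 ± 0.31 (adjusted p = 0.000112). The window of ric-7 takes in end-1 sites with 4541 and 3026 of its 24952 reads, so its value is not independent of that of end-1. The lowest bin within 20 kb of end-1 or end-3, 17.9 kb above the lower end of end-1, had 3, 0 and 131 reads in Dam::EMR-1 against 4568, 4127 and 2744 in GFP::Dam. On the far side of end-3, a bin 8.31 kb above its lower end was enriched at 4.14 ± 1.98 (adjusted p = 0.047). Farther out, the bins centred 12.3 and 14.3 kb above that end were depleted at -5.52 ± 2.42 and -5.20 ± 0.96 (adjusted p = 0.028 and 0.019), as was the gene T08G5.3 at -2.49 ± 0.655 (adjusted p = 0.024). The bin of end-3 itself was not called, with replicates of 2.15, -0.85 and -5.48. The bin directly below it was not called either, with replicates of 1.86, -7.61 and -0.68.

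**Figure D3:**
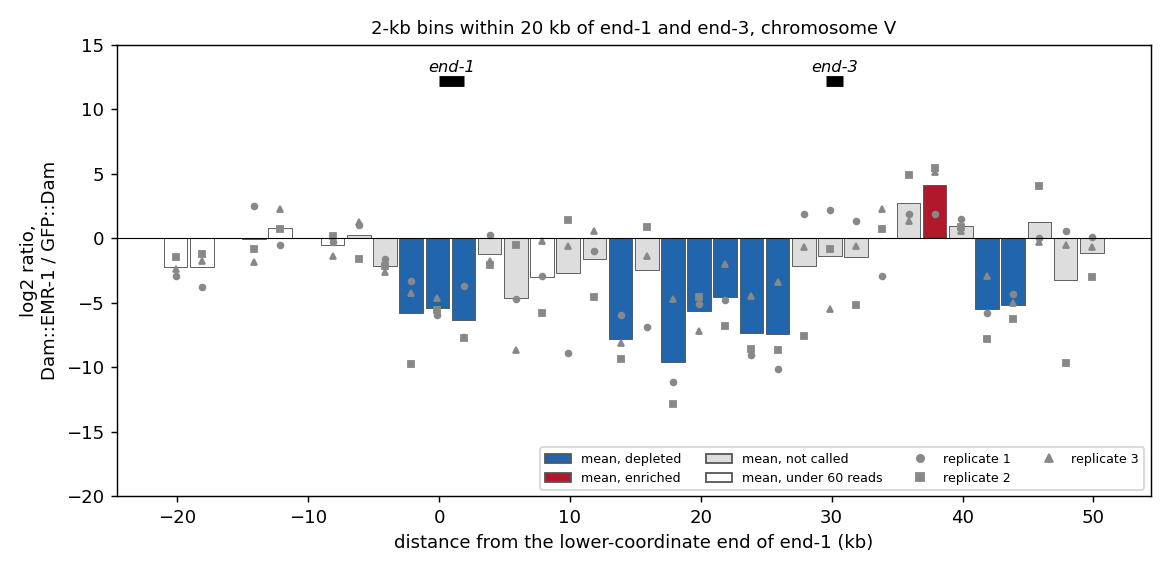
Log2 ratio of Dam::EMR-1 over GFP::Dam in 2-kb bins within 20 kb of end-1 and end-3, against distance from the lower-coordinate end of end-1 in kb. Bars, colours and symbols are as in the plot of the med genes and elt-7. Depleted bins cover end-1 and part of the stretch between the genes. The bin of end-3, with replicates from 2.15 to -5.48, and the bin directly below it were not called.

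elt-7 and elt-2 carry the cascade into differentiation. elt-7, on chromosome V at 4770670 to 4773086, had 2, 22 and 3 reads over 3 sites in the Dam::EMR-1 libraries and 97, 30 and 63 in the GFP::Dam libraries. The groups did not overlap, although replicate 2 brought them close. The replicate ratios were -4.13, -1.35 and -3.70, with a mean of -3.06 ± 1.49 (limma, adjusted p = 0.020). This call was lost without replicate 1 (adjusted p = 0.10), without replicate 3 (0.077), with summed reads (0.073) and with edgeR without and with the replicate block (0.076 and 0.13), within a range of 0.0053 to 0.13 over 14 alternatives. 2 of its sites were outside the gene, 433 and 44 bp below its lower end, and the 1 inside had 18 reads.

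The 1 listed bin of elt-7 and the bin below it formed a run of 4 kb with every replicate below 0 and a mean of -4.17 ± 1.85. The bin of elt-7 itself was not called (-3.87 ± 2.40, limma, adjusted p = 0.062). Its 217 reads are the same as those of the gene's sites, so it adds no separate measurement. The run stopped at unlisted bins on both sides, so its extent is not known. The next listed bins started at 4762001 and 4774001, and the upper part of elt-7 has no bin value. C18G1.9, 917 bp below elt-7, was depleted too, with a ratio of -3.45 ± 1.604 (limma, adjusted p = 0.00979). Its window of 500 bp on each side takes in 1 site of elt-7, with 96 of its 512 reads. The value of C18G1.9 is thus not independent of that of elt-7. Of 12 tested neighbours within 20 kb C18G1.9 was the 1 depleted, and 2 were enriched, Y60C6A.1 at 3.49 ± 1.71 and R02F11.11 at 4.56 ± 1.93 (adjusted p = 0.0045 and 0.00158). cdk-4, a cyclin-dependent kinase gene, and dylt-2, a dynein light chain gene, were the closest to elt-7 over the 6 libraries, at distances of 0.29 and 0.30 against 3.74 for the median gene.

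elt-2, the main transcription factor gene of the intestine, lies on chromosome X at 10481240 to 10483441. It had 363, 452 and 151 reads over 6 sites in the Dam::EMR-1 libraries and 1094, 1610 and 723 in the GFP::Dam libraries. Every Dam::EMR-1 library was lower, but none was near 0. The replicate ratios were -2.51, -4.56 and -2.91, with a mean of -3.33 ± 1.09 (limma, adjusted p = 0.0029). With summed reads the ratio was -2.25 and did not pass (adjusted p = 0.062, the highest of 15 alternatives from 0.0012 up), nor did it with edgeR and the replicate number as a block (-2.66, adjusted p = 0.052).

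Within elt-2 the site ratio was not even. At 94 and 956 bp from the lower end it was -0.85 ± 0.60 and -0.90 ± 0.58, with 89, 238 and 72 reads in Dam::EMR-1 against 153, 215 and 128 in GFP::Dam at the first of these. At 1039 and 1412 bp it was -4.02 ± 2.98 and -4.87 ± 3.03. At 1479 bp the Dam::EMR-1 libraries had 2, 0 and 1 reads and the GFP::Dam libraries 319, 733 and 86, a ratio of -7.60 ± 2.14 (limma, adjusted p = 0.020). The lowest minus the highest tested site was -6.75 ± 2.61 over 1385 bp, a pair chosen after its values were seen and given with no test.

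cup-16 and fpn-1.2 were closest to elt-2 over the 6 libraries, at distances of 0.67 and 0.73 against 5.13 for the median gene. Neither passed the test, with ratios of -1.14 ± 0.05 and -1.59 ± 1.12 (limma, adjusted p = 0.15 and 0.059).

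elt-4, at 10475527 to 10475959 on the same chromosome and 5280 bp below elt-2, had 81, 3 and 55 reads over 3 sites in the Dam::EMR-1 libraries. The GFP::Dam libraries had 1962, 1248 and 1863. The groups were far apart, and the replicate ratios of -5.58, -7.63 and -4.73 gave a mean of -5.98 ± 1.49 (limma, adjusted p = 0.00015). The share of all tested genes with a lower ratio was 2.16% for elt-4, against 16.2% for elt-2 and 18.4% for elt-7. The call of elt-4 held under all 15 alternatives, with adjusted p from 2.0e-08 to 0.014. In the gene body alone, which holds 1 site, the ratio was -4.04.

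elt-4, elt-2 and the gene between them, C39B10.7, lay in 1 stretch below 0. All 3 replicates were below 0 in 5 neighbouring bins, 10 kb from 10474001 to 10484000, with a mean of -3.91 ± 0.95. Of these bins 4 were depleted, and the bin of the lower part of elt-2 was not called (-1.17 ± 0.54, limma, adjusted p = 0.39). With ratios scaled by total reads the run kept 3 bins around elt-4, from 10474001 to 10480000. The lower elt-2 bin then had replicates of -1.14, 0.20 and -0.69, while the upper one stayed below 0 in all 3 and the elt-2 gene ratio was -3.06 (adjusted p = 0.0040). C39B10.7 itself had a ratio of -5.25 ± 1.54 (limma, adjusted p = 0.000108).

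Enriched bins stood farther out on both sides of the stretch. On the upper side, the bin centred 11.8 kb from the lower end of elt-2 had 619, 825 and 1333 reads in Dam::EMR-1 against 9, 12 and 1 in GFP::Dam. This was a ratio of 6.39 ± 2.29 (limma, adjusted p = 0.016). On the lower side, the bin centred 20.5 kb below elt-4 had 148, 145 and 137 reads in Dam::EMR-1 against 1, 0 and 0 in GFP::Dam, a ratio of 6.12 ± 0.78 (adjusted p = 0.013). The ion channel gene lgc-41 there was enriched at 3.59 ± 0.22 (adjusted p = 0.000455).

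**Figure D4:**
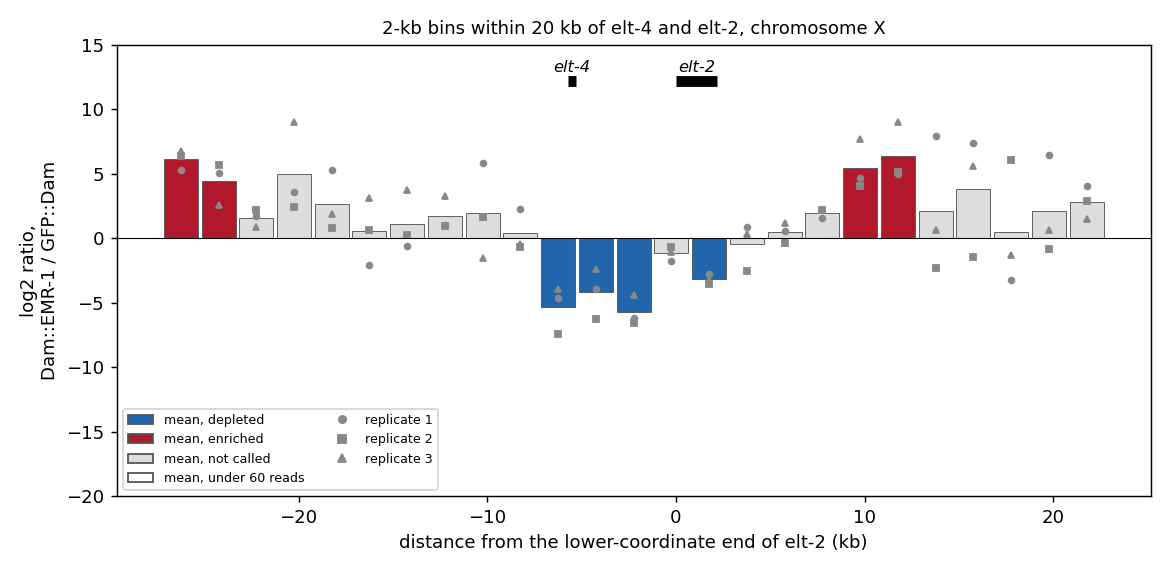
Log2 ratio of Dam::EMR-1 over GFP::Dam in 2-kb bins within 20 kb of elt-4 and elt-2, against distance from the lower-coordinate end of elt-2 in kb. Bars, colours and symbols are as in the plot of the med genes and elt-7. Depleted bins span elt-4, the gap up to the bin before elt-2, and the upper part of elt-2, and enriched bins stand on both sides of the stretch, up to 6.39.

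The read level of each library, as log2(CPM + 1) summed over a gene's sites, shows which group carries each ratio. end-1 averaged 2.41 ± 1.48 in Dam::EMR-1 and 7.40 ± 0.40 in GFP::Dam, and elt-4 averaged 1.51 ± 1.09 in Dam::EMR-1 and 6.62 ± 0.29 in GFP::Dam (SD, n = 3 each). elt-2 averaged 4.09 ± 0.81 in Dam::EMR-1 and 6.01 ± 0.62 in GFP::Dam, and elt-7 0.54 ± 0.63 in Dam::EMR-1 and 2.14 ± 0.60 in GFP::Dam. For these 4 genes all Dam::EMR-1 libraries lay below all GFP::Dam libraries, as for 25.2% of all tested genes. For med-1, with 3.04 ± 0.34 in Dam::EMR-1 and 1.86 ± 0.51 in GFP::Dam, all lay above, as for 37.1%. The exact two-sided permutation test of 3 against 3 libraries gave p = 0.1 for each of these 5 genes, the smallest it allows (0.14 adjusted over the 7 members), and 0.7 for med-2 and end-3, whose groups overlapped.

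**Figure D5:**
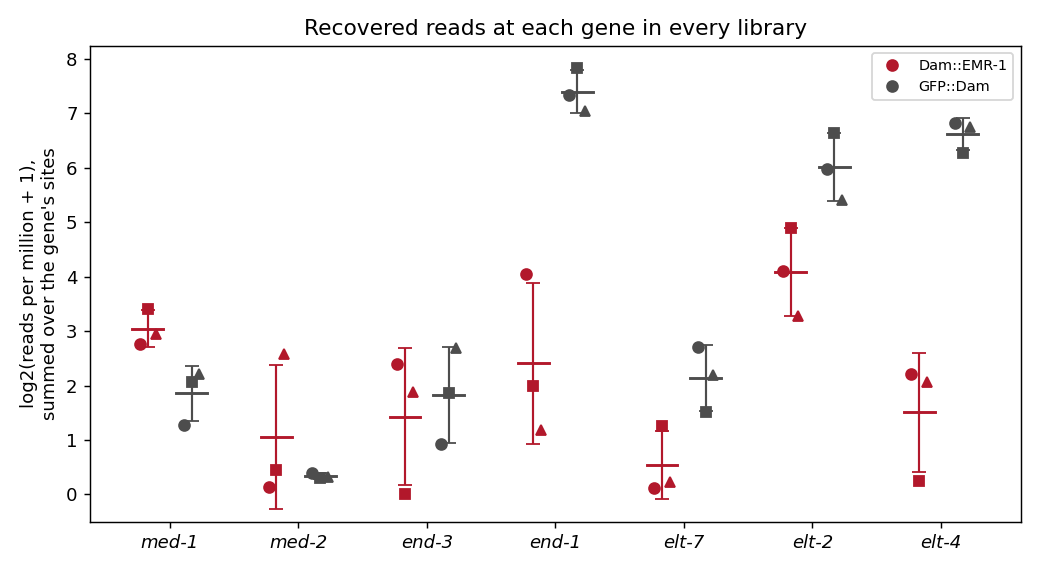
Recovered reads per library at each gene, as log2(CPM + 1) summed over the gene's sites, with Dam::EMR-1 libraries in red on the left and GFP::Dam libraries in grey on the right of each gene. Symbols are libraries (circle, square and triangle for replicates 1, 2 and 3), and bars are means with 1 SD; 1 site of med-2 and 1 of end-1 enter as the mean over the possible solutions. The groups do not overlap for end-1, elt-7, elt-2, elt-4 and med-1.

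Site by site, 7 of the 18 tested sites were depleted and 0 enriched, where 12.7% of all tested sites were depleted and 12.5% enriched. The depleted sites were 4 in or beside end-1, 2 beside elt-4 and 1 in elt-2. At an unadjusted p under 0.05 in limma, 12 were depleted and 0 enriched. With replicate 1, 2 or 3 left out, 0 were called and 8, 9 and 7 were depleted at an unadjusted p under 0.05, while 0 of all 124915 sites were called with 2 ratios. In the authors' deposited table, 9 of the 22 member sites with an adjusted p were under 0.05 with an average below 0, and 0 were above, against 19.1% below and 18.3% above over all sites with a p.

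Of the 112 tested 2-kb bins within 20 kb of a member, 23 were depleted and 10 enriched, against 17.2% and 19.2% of all tested bins. Without replicate 1 the counts were 6 depleted and 4 enriched, where 8.56% and 6.2% of all bins were called. Without replicate 2 they were 4 and 1 (7.69% and 5.29% of all bins), and without replicate 3 they were 13 and 1 (8.92% and 6.75%). Of 45 tested neighbour genes, 15 were depleted and 8 enriched, where 27.2% and 30.3% of all tested genes were, and 9 of the depleted ones stood around med-2. Some neighbours share sites with each other or with a member, so these genes are not separate observations.

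Set against its own surroundings, a member's bin ratio minus the mean of the other tested bins within 20 kb was -6.68 ± 1.06 for elt-4, -4.17 ± 2.60 for elt-7, -3.34 ± 1.12 for elt-2 and -1.88 ± 1.26 for end-1. All 3 replicates were below 0 for each of these 4 genes (exact two-sided sign-flip permutation test, p = 0.25, the smallest possible, and 0.44 adjusted over the 7 members). The surroundings of end-1 were low themselves, at -3.99 ± 0.61. For med-2, end-3 and med-1 the differences were 2.98 ± 3.61, 1.54 ± 4.83 and 0.31 ± 0.51, each with replicates of both signs (p from 0.5 to 0.75). Without replicate 1 the difference for end-3 was -0.43.

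The width of the bin changed what was called. At 10 kb, the bins of end-1, end-3 and elt-4 were depleted, with ratios of -4.29 ± 1.802, -4.15 ± 2.02 and -3.93 ± 1.43 (limma, adjusted p = 0.0058, 0.0095 and 0.0053), where 25.2% of all 10-kb bins were depleted and 28.4% enriched. Of the 8203 reads in the 10-kb bin of end-3, 6816 fell in a 2-kb bin that overlaps ddx-17 and 119 in that of end-3 itself. Of the 30285 reads in the 10-kb bin of elt-4, 22830 fell in a 2-kb bin that overlaps C39B10.7. These 2 values thus rest mostly on neighbouring genes. The 10-kb bin of elt-2, which starts between it and elt-4, had -0.69 ± 0.97 and was not called. At 100 kb, the bins of med-1 (-1.37 ± 0.14), med-2 (-1.25 ± 0.15), end-3 (-1.65 ± 0.19) and the shared bin of elt-4 and elt-2 (-0.63 ± 0.50) were depleted, where 38% of all 100-kb bins were depleted and 36.9% enriched. Those of end-1 (0.09 ± 0.31) and elt-7 (-0.25 ± 0.37) were not called.

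The other genes of the endoderm pathway were compared as lists. Of 18 genes listed as maternal and Wnt inputs to endoderm, 14 were depleted and 0 enriched, where 27.2% and 30.3% of all tested genes were. The median ratio of the 18 was -3.17, against -3.06 over the endoderm GATA genes and 0.31 over all tested genes. skn-1, which encodes the maternal activator of the med genes, had a ratio of -4.80 ± 0.24 (limma, adjusted p = 1.34e-05). pal-1, a maternal Caudal-type homeobox gene, had -5.63 ± 0.27 (adjusted p = 4.32e-05). The Nemo-like kinase gene lit-1 and the beta-catenin gene wrm-1 had -3.88 ± 0.10 and -4.09 ± 0.79 (adjusted p = 1.31e-05 and 0.000352). Those with the highest adjusted p were mom-4, a kinase gene, at 0.07 ± 0.99 and src-1, a tyrosine kinase gene, at -1.13 ± 1.58.

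Among 8 other zygotic genes of the EMS lineage, 5 were depleted and 0 enriched, where 27.2% and 30.3% of all tested genes were. The median of the 8 was -2.97. The pharynx selector pha-4 had -3.85 ± 1.04, the muscle factor hlh-1 -3.42 ± 0.55, sdz-26 -3.17 ± 2.16 and the mesoderm homeobox gene ceh-51 -3.13 ± 1.67 (limma, adjusted p = 0.000565, 0.00283, 0.0124 and 0.0129). The mesoderm T-box gene tbx-35, a direct target of the MED factors, had -0.12 ± 0.56, and the muscle factor gene unc-120 had 1.68 ± 1.22. Neither of these passed (adjusted p = 0.91 and 0.088).

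The 4 other GATA factor genes had a median of -0.93, with 2 depleted and 0 enriched, where 27.2% and 30.3% of all tested genes were. elt-3, which acts in the epidermis, had -3.35 ± 0.19 (limma, adjusted p = 0.000516), and egl-18, which acts in seam cells, had -1.90 ± 0.38 (adjusted p = 0.024). elt-1, which specifies epidermis, had replicates of 2.37, 2.20 and -2.13 and did not pass. elt-6, the neighbour of egl-18, had 0.04 ± 1.21 and did not pass either.

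Genes of the differentiated intestine, many of them bound by ELT-2, were called at shares near those of all tested genes. Of 23, 8 were depleted, 8 enriched and 7 not called, with a median of 0.30, where 27.2% of all tested genes were depleted and 30.3% enriched, with a median of 0.31. The cysteine protease gene cpr-6 (-5.42 ± 0.28) and the sphingosine phosphate lyase gene spl-1 (-4.08 ± 1.03) were depleted (limma, adjusted p = 6.05e-05 and 0.00065). The intermediate filament gene ifc-2 (2.75 ± 0.39) and the cadmium-responsive gene cdr-1 (4.99 ± 2.34) were enriched (adjusted p = 0.000782 and 0.00182). The transporter genes pept-1 and pgp-1 had the highest adjusted p, with ratios of -0.26 ± 1.47 and 0.30 ± 1.50.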

How the data were processed

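DamID libraries were made from 200 ng of genomic DNA with 24 PCR cycles, from embryos of 4000 adults per strain grown for 72 h, per the labels' protocols. The deposited tables of the authors hold, per the file headers, log2 ratios in 3 columns by replicate number, the raw read count of all 6 libraries together, and an average log2 value and adjusted p-value of the authors, for GATC sites and bins of 2, 10 and 100 kb. The submitters' processing notes name ce11 and DESeq2, and the aligner is not given in the sources used here. 0 columns of per-sample values were left unused.

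From the values, each ratio is log2 of (reads + 1) over (reads + 1), centred per column. Whole reads per library were recovered from ratios and read sums with a tolerance of 4e-12 (log2), uniquely for 90.2% of GATC sites, 90.1% of 2-kb and 99.9% of 100-kb bins, with 0 entries without a solution, and ambiguous entries took the mean of their solutions. Depth came from the 100-kb table. PCR duplicates were not separable, so counting error is understated. The labels name no separate cultures for the replicates, and the p-values reflect the spread of these libraries alone, which may be technical.

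The tables hold ratios, so limma 3.58.1 (R 4.3.3) was fitted with an intercept only, a trend on log2 read sum, robust, with Benjamini-Hochberg adjustment over all features with at least 60 reads, two-sided at 0.05. edgeR 4.0.16 and DESeq2 1.42.0 ran on recovered reads as alternatives, as did no read minimum, total-read scaling, pseudocounts of 0.1 and 5, other gene windows, an adjusted p of 0.01 and each replicate left out. The code was tested on simulated data. Gene positions came from a RefSeq table of WBcel235 without strand, matched by symbol.

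Members and lists were chosen with earlier results of these data known. Genes named beyond the members are neighbours within 20 kb that were called or adjacent, all other GATA genes, up to 4 called genes with the smallest adjusted p and 2 genes with the largest per list, and the 2 genes closest to end-1, elt-2 and elt-7 in Euclidean distance over the 6 libraries.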

Additional observations from a re-analysis of the deposited data

How the results depend on the processing

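Ratios of end-1 and elt-4 kept their direction and their call under 15 alternatives each. The number of depleted members was 2 with reads summed per gene. elt-7 did not pass at an adjusted p of 0.01 (-3.06, adjusted p = 0.020), with summed reads (-3.52) or with edgeR without the replicate block (-3.48), nor without replicates 1 and 3 (values from -3.91 to -2.53 with each replicate left out), and elt-2 did not pass with summed reads (-2.25). med-1 was enriched with 2000 bp on each side (2.11), giving 1 enriched member. Without replicate 3, med-2 had a ratio of -0.32 and a read level difference of -0.052 (Dam::EMR-1 minus GFP::Dam), and the ranges with each replicate left out were -0.32 to 2.12 and -0.052 to 1.21. end-3 minus its surroundings was -0.43 without replicate 1 (up to 4.24 with another left out), and its read level difference was 0.34 without replicate 2 (down to -1.33 with another left out). The cause was not tested for any of these.

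Depleted member sites numbered 0 at an adjusted p of 0.01 and 0 with any replicate left out, when limma had 2 ratios per site. Depleted bins numbered 3 at 0.01, 14 with a pseudocount of 0.1 and 4 to 13 with a replicate left out, and enriched bins 0, 4 and 1 to 4.

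The deposited ratios set libraries of the same number together, but the deviations of same-numbered libraries from their group means correlated at -0.08, -0.08 and -0.06 over 18651 genes, and the labels do not say that a number marks a shared culture or day. With the replicate number as a block, edgeR called 2 members depleted, with elt-7 at -4.24 (adjusted p = 0.13) and elt-2 at -2.66 (adjusted p = 0.052). Without the block, edgeR called 3, and limma and DESeq2 4.

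Total-read scaling raised site ratios by 0.27 and 2-kb ratios by 0.62 on average. The gene body alone left med-1, med-2 and elt-7 without a tested value. Low reads at med-2, elt-7 and end-3 limit their precision. The promoter motif counts planned for these genes were not run.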
